A study of Homo sapiens with 4 samples.

Results

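Alternative exons that were read deeply and whose length is not a multiple of 3 were followed in HEK293T cells, a human embryonic kidney line, with and without knockdown of SNORD89, a C/D box small nucleolar RNA. An exon was taken from the authors' deposited table of skipped exons when its event held 200 or more junction reads in the mean of the 4 libraries, its mean inclusion level was from 0.2 to 0.8, and its length, of over 50 and under 400 nt, was not divisible by 3. For each exon the event with most reads was kept. The rule found 351 exons in 295 genes, out of 49507 distinct exons in the table, and another 370 exons met the same limits with a length divisible by 3. The exons were thus chosen by their measured reads and mean inclusion level, which are given as a description only. The difference between the conditions was not part of it.

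Per the labels, 2 libraries came from 293T cells transfected with 70 nM of a gapmer ASO (antisense oligonucleotide) directed at SNORD89, and 2 biological replicates came from cells with no ASO treatment. The labels give no genotype change, and they name no control ASO. The medium was replaced at 24 hours and RNA was isolated at 48 hours, and poly(A) RNA was sequenced as read pairs of 150 bases. The table holds a first and a second set of 2 libraries each, and neither its header nor the labels say which set had the ASO, so directions are given as first against second set. Libraries 1 and 2 of a set are named by their place in the table, which pairs nothing across sets, and the markers of the cell line and SNORD89 itself could not be checked in a table of exon skipping.

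When an exon whose length is not a multiple of 3 is left out of a coding sequence, the ribosome reads all codons downstream in another frame and usually meets a stop codon early. A stop codon that lies well upstream of the last exon junction marks an mRNA for nonsense-mediated decay (NMD), the pathway that degrades transcripts with premature stops. Cells use this to lower the output of a gene by splicing, for example with poison exons, whose inclusion brings in a stop. In a noncoding RNA, or upstream of the start codon in use, there is no frame to shift.

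Set beside GENCODE release 29, only part of the 351 exons was matched to an annotated coding sequence. By the spacing of exon and introns within the gene, 310 of them (88.3%) were matched to a single exon of that annotation. Here and below, only transcripts that hold the exon between introns of the same lengths were counted as including it. Transcripts that join the exon to other neighbours were not counted, so its place and fate may differ there. Of the 351, 142 (40.5%) were wholly coding in a protein-coding transcript and 29 (8.26%) were partly coding. A further 64 (18.2%) lay in the 5′ untranslated region of every matched protein-coding transcript. Another 63 (17.9%) were in no matched protein-coding transcript of their protein-coding gene. Genes of another type held 12 (3.42%), and 41 were not matched. The label of frame-shifting exons therefore holds by length for all 351 but by matched coding sequence for a part of them. Among the 370 exons of a length divisible by 3, 255 (68.9%) were wholly coding and 17 (4.59%) were untranslated. No test was made of these shares.

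The annotated fate of the 2 forms was uneven as well. In 175 of the 351 exons, both the included and the skipped form were found in protein-coding transcripts. In 28, the included form was found in NMD transcripts and no protein-coding one, while the skipped form was coding, as for a poison exon. The reverse, a coding included form and a skipped form listed under NMD and not as coding, was found for 24 exons. Of the exons that keep frame, 9 and 2 were of these kinds.

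Inclusion levels were described by place, since the rule bounded them between 0.2 and 0.8. The wholly coding exons had a median of 0.698 and the untranslated ones a median of 0.461, with the partly coding exons between them at 0.607. Exons in no protein-coding transcript had a median of 0.583. For the 28 exons with an NMD-listed included form that form made up a median of 0.510 of the length-corrected junction reads, from 0.204 in LAMP2 to 0.772. The skipped form of the 24 exons of the reverse kind made up a median of 0.279, and it was above 0.5 in 2 of them.

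**Figure D1:**
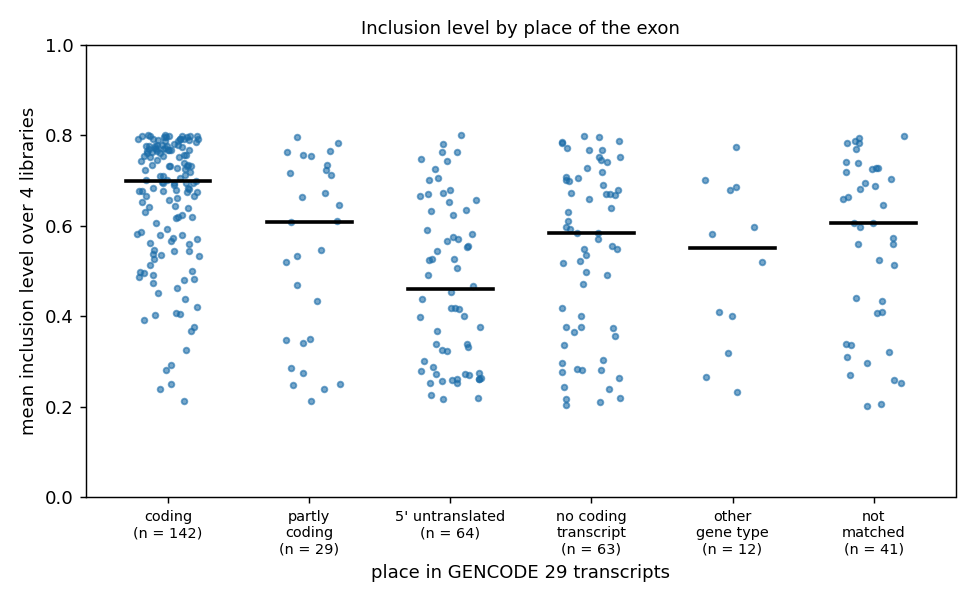
Mean inclusion level over the 4 libraries (y axis, fraction) of each of the 351 exons, one point per exon, by its place in GENCODE 29 transcripts (x axis), with the median as a bar. The medians are 0.698 for the 142 coding exons and 0.461 for the 64 exons in the 5′ untranslated region, and all points lie between 0.2 and 0.8 because the rule set those limits.

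The change of frame was read from the transcript sequences of GENCODE release 29. The exon was removed from an annotated coding transcript, or placed into one that skips it, and translation was followed from the annotated start codon. Removal could be read for 128 wholly coding exons, and in 70 of them (54.7%) the new stop lay more than 50 nt upstream of the last exon junction. In the other 58 the stop lay nearer to the last junction or past it. These were not only exons late in the coding sequence. The VKORC1 exon follows 57 of 163 codons, and its removal left 92 codons. None of 237 coding exons of a length divisible by 3 gave such a stop on removal, which follows largely from their length, since the frame stays the same. Placing the exon into a coding transcript could be read for 107 exons, with the first stop inside the exon in 45 (42.1%) and more than 50 nt upstream of the last junction in 47 (43.9%). For the exons that keep frame these were 23 and 12 of 233. The 107 included 7 exons, U2AF1 and TMEM126B among them, that are untranslated in the matched transcripts that hold them. They could be placed inside the coding sequence of a transcript that skips them. All 7 then brought a stop more than 50 nt upstream of the last junction.

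The sequences below show where these stops arise, for coding exons that were called between the sets, for the deepest exon with an NMD-listed skipped form and for exons with an NMD-listed included form. Each is the sense strand, 5′ to 3′, from the GENCODE 29 transcript matched by exon spacing, beginning up to 30 coding bases before the new junction and ending with the first in-frame stop, in capitals. Positions are those of the exon in the table, in hg19. With the exon skipped, the downstream exon is read in the shifted frame:
CHEK1 without its 224-nt exon: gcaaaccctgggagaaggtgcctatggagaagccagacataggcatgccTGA
CDKN3 without its 83-nt exon: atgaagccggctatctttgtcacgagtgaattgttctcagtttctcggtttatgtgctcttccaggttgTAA
RNF14 without its 152-nt exon: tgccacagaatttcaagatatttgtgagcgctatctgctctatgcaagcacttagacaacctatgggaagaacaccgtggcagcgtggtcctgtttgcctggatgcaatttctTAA
SLC25A14 without its 86-nt exon: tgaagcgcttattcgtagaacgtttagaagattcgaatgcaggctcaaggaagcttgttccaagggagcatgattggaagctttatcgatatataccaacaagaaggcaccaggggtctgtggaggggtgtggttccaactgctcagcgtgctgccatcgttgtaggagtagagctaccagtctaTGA
HDDC2 without its 103-nt exon: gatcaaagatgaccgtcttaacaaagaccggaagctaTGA
EIF4A2 without its 140-nt exon: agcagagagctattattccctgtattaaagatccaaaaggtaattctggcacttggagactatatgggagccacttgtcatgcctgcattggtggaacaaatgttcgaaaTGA
The exons are at chr11:125497502-125497725, chr14:54866612-54866694, chr5:141354369-141354520, chrX:129484620-129484705 and chr3:186502751-186502890 on the plus strand and chr6:125619860-125619962 on the minus strand. In CHEK1, which encodes a checkpoint kinase of the DNA damage response, reading stopped after 28 codons in place of 476, 1147 nt before the last junction. In HDDC2 the stop lay within 10 bases of the junction. CDKN3, which encodes a phosphatase acting on cyclin-dependent kinases, is shown from its start codon, since the exon follows the first 9 coding bases.

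With the exon included in a transcript that otherwise skips it, the stop lies in the exon itself:
EIF4A2 with the 107-nt exon: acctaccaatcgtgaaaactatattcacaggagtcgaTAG
TCF3 with the 227-nt exon: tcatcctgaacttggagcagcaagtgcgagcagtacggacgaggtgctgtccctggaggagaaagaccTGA
TMX2 with the 191-nt exon: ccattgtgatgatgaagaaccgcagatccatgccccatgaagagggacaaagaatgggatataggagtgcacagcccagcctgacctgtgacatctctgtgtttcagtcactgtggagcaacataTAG
LAMP2 with the 218-nt exon: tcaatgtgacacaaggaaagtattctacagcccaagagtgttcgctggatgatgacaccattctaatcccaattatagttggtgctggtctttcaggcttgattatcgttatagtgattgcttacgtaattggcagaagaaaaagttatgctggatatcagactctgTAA
PRPF39 with the 100-nt exon: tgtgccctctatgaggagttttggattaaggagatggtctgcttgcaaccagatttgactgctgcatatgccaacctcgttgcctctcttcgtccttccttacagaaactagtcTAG
These exons are at chr3:186506099-186506205, chr11:57505308-57505498 and chr14:45579097-45579196 on the plus strand and chr19:1612206-1612432 and chrX:119572931-119573148 on the minus strand. In EIF4A2, an RNA helicase of translation initiation, the stop begins at base 8 of the exon and reading ends after 362 of 407 codons, 97 nt before the last junction. In LAMP2, a lysosomal membrane protein made in isoforms with different tails, the stop came after 410 codons, as many as in the skipping form. TCF3 makes the transcription factors E12 and E47 from neighbouring exons that are used in place of each other. The table gives the reads of both inclusion junctions of an event as a sum, so an exon used in place of a neighbour cannot be told from one used beside it.

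Across the 351 exons, differences between the set means were small, with a median between those of the 2 comparisons within a set. The values within a set compare single libraries, which scatter more than means of 2, so these are not like measures. The median absolute difference between the set means was 0.0408, with 211 exons under 0.05, 35 at 0.1 or more and 3 at 0.2 or more. The median between libraries within a set was 0.0339 for the first and 0.0547 for the second. A difference over 0.1 within a set was found in 31 exons of the first and 85 of the second. Library 2 of the second set stood apart: it gave the lowest level of the 4 in 125 exons and the highest in 94. Library 1 of that set gave the lowest in 101 and the highest in 66. The first set mean differed from library 1 of the second by a median of 0.0385 and from library 2 by 0.0538. Total junction reads were 38613055 and 39012939 for the first set, against 42868431 and 43929373 for the second. The median of tested events nevertheless ran the other way, at 222 and 199 against 157 and 171 reads. Over the 351 exons the medians were 374, 368, 370 and 369 reads, though single exons differed in depth between the sets. The widest 95% Wilson interval of an exon reached 0.0558 to either side in the median, for counting error only.

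**Figure D2:**
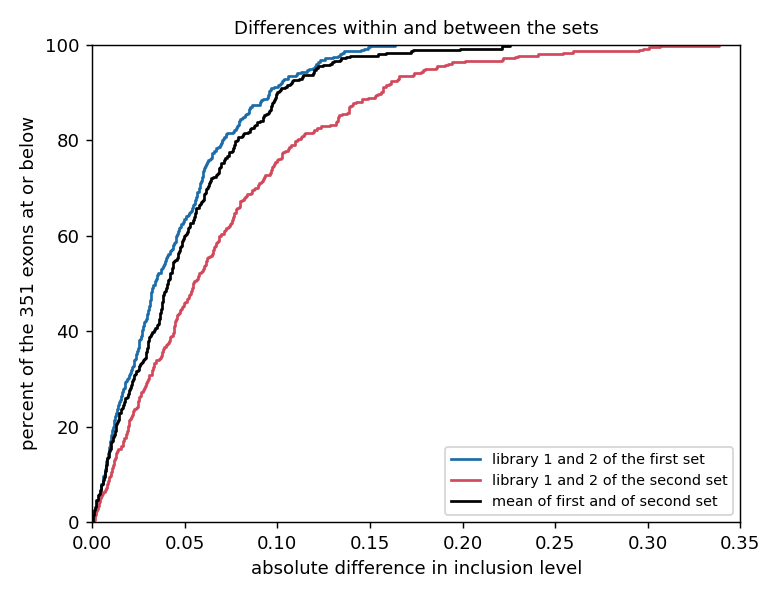
Cumulative percent of the 351 exons (y axis) at or below an absolute difference in inclusion level (x axis), between the 2 libraries of the first set (blue), between those of the second (red) and between the set means (black). The black line lies between the others, with medians of 0.0339, 0.0547 and 0.0408 for the first set, the second set and the set means. The black line compares means of 2 libraries and the others compare single libraries, so they are not like measures.

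More of these exons lay higher in the first set than lower. The set mean was higher in the first set for 203 and lower for 148, a median difference of 0.0114, and for 213 and 138 without library 2 of the second set. The share higher in the first set was 57.8%, close to the 55.7% of the exons that keep frame (206 higher and 164 lower), and it was 52.7% of tested events of mean inclusion 0.2 to 0.8 and 43.5% of all tested events. The 4 libraries separated by set, with no overlap, in 136 exons (38.7%), against 22.8% of the 54503 events of the table with a mean of at least 20 reads. Of these, 94 were higher in the first set (26.8%, against 9.29% of tested events) and 42 lower (13.5% of tested events). The tested events had a median mean inclusion level of 0.983, so most of them are exons that are nearly always included. Among the 4331 tested events with a mean inclusion level from 0.2 to 0.8, 18.6% were separated higher and 15.4% lower, and among the exons that keep frame 18.9% and 15.9%. A gap of at least 0.05 between the sets was left in 31 of the 136. By place, 73 of the wholly coding exons were higher in the first set and 69 lower, the untranslated ones 42 and 22, and those in no protein-coding transcript 39 and 24. No test was made of these counts. For the 52 exons with 1 form listed only under NMD, the share of that form was higher in the first set in 25 and lower in 27, with a median difference of -0.0027.

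**Figure D3:**
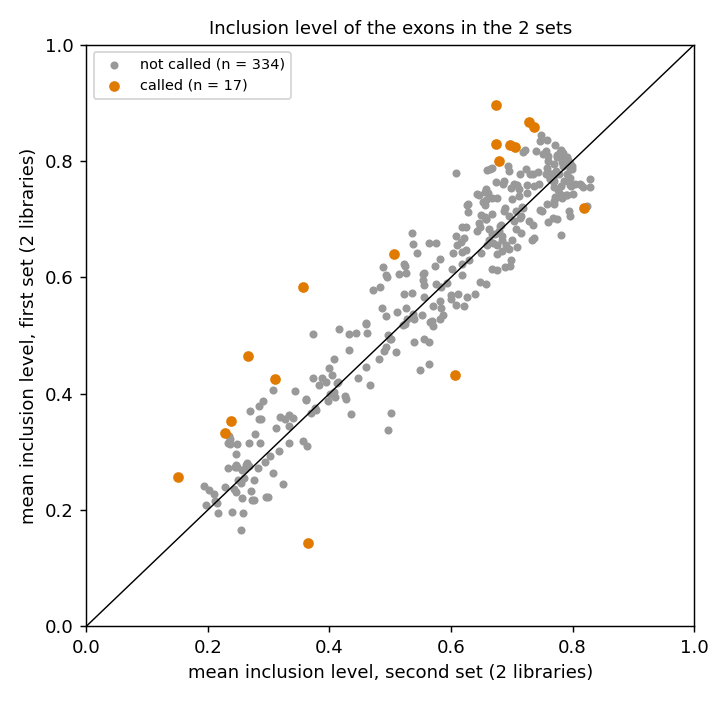
Mean inclusion level of the 351 exons in the second set (x axis) and the first set (y axis), each the mean of 2 libraries, with the line of equal levels. Most points lie close to the line, and the 17 called exons (orange) lie off it, 14 above and 3 below.

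An exon was called when the false discovery rate (FDR) in the authors' deposited table, from the rMATS test, was under 0.05 and the difference at least 0.1. By this rule 17 of the 351 exons were called (4.84%), 14 with a higher and 3 with a lower level in the first set. Over tested events the rates were 2.71% in all, 1.34% higher and 1.37% lower, and 7.85% in all among tested events of mean inclusion 0.2 to 0.8. The exons that keep frame gave 17 of 370 (4.59%), 11 higher and 6 lower. All 17 were separated by set, and the plot of called exons shows 16 of them. With library 2 of the second set left out, 9 of the 17 kept a difference of 0.1 or more, 7 higher and 2 lower.

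By the quasi-binomial model, fitted over all tested events with the scatter between libraries as its error and moderated with limma, 0 of the 351 exons had an adjusted p under 0.05, and the smallest was 0.489, in MKNK2. Of all tested events, 1 passed (0.00183%). At an unadjusted p under 0.05 were 35 of the 351 (9.97%, against 8.70% of tested events). A limma fit to log2 ratios of the inclusion and skipping reads gave 0, with 0 of the 351 at an unadjusted p under 0.05 (4.85% of tested events). That fit gives deep and shallow events equal weight, and after adjustment it passed 0 of all tested events. Its 0 for these deep exons therefore cannot back that of the quasi-binomial model. The 17 called exons thus passed the authors' test and did not pass the quasi-binomial one. Since the quasi-binomial model passed only 1 of all tested events, its 0 does not decide whether the called exons differ. With the dispersion set to at least 1 before moderation, chosen after seeing the data, 5 of the 351 passed, against 0.117% of tested events.

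**Figure D4:**
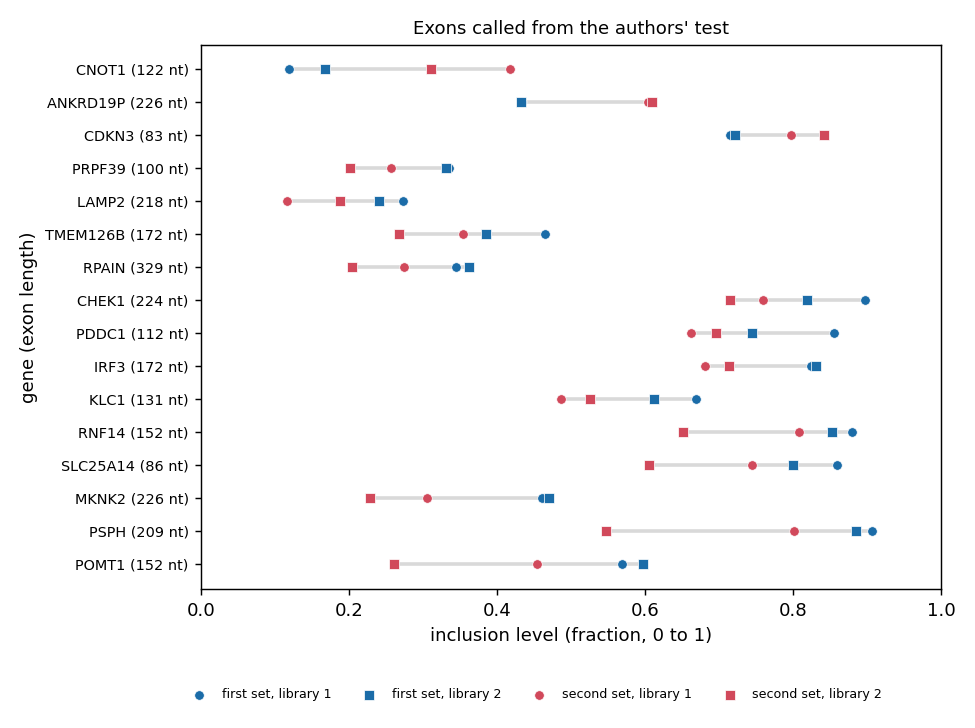
Inclusion level (x axis, fraction from 0 to 1) in each of the 4 libraries for 16 of the 17 called exons, named by gene and length (y axis), ordered by their difference. The first set (blue) and second set (red) do not overlap in any of the 16. Library 2 of the second set (red squares) lies farther from the first set than library 1 in POMT1, PSPH, RNF14 and SLC25A14. The same holds for CHEK1, CDKN3, MKNK2, PRPF39, RPAIN, TMEM126B and, by little, ANKRD19P. In the other exons shown library 1 lies farther.

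Among the called exons, 5 were wholly coding, out of 142 wholly coding exons. No test was made of the counts of called exons by kind, here or below. The CHEK1 exon (ENSG00000149554.8) was at 0.897 and 0.818 across the first set, and 0.759 and 0.715 across the second, from 336 to 554 reads. Every library of the first set lay above every library of the second, and CHEK1 had a difference of 0.12 at an FDR of 0.00278 by the authors' deposited table. The CHEK1 difference was 0.0811 without library 1 of the first set and 0.0986 without library 2 of the second. RNF14, an E3 ubiquitin ligase, had an exon (ENSG00000013561.13) at 0.880 and 0.853 across the first set, and 0.808 and 0.650 across the second. Only library 2 of the second set was far below the rest, and RNF14 had a difference of 0.137 at an FDR of 0.0142 by the authors' deposited table but 0.0586 without that library. For the mitochondrial carrier SLC25A14 (ENSG00000102078.11) the levels were 0.859 and 0.799 across the first set, and 0.745 and 0.605 across the second. SLC25A14 had a difference of 0.154 at an FDR of 0.021 by the authors' deposited table, and its difference was 0.0847 without library 2 of the second set. On junction reads without the correction for form length, the differences were 0.0745 for CHEK1 and 0.0874 for RNF14, and likewise 0.0842 for IRF3 and 0.146 for PSPH, which are described further on. Removal of the CHEK1, RNF14, SLC25A14 and CDKN3 exons gave a stop more than 50 nt before the last junction. The annotation did not list the skipped form of any of the 5 called coding exons under NMD. It was found in protein-coding transcripts for 3 of them and only in transcripts of other types for 2.

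The CDKN3 exon (ENSG00000100526.15) went the other way, at 0.715 and 0.722 across the first set, and 0.796 and 0.842 across the second. It had a difference of -0.101 at an FDR of 0.0102 by the authors' deposited table, and both libraries of the first set were close together below those of the second. The CDKN3 difference was -0.0970 when library 1 of the first set was left out, -0.0783 when library 2 of the second was, and -0.0768 without the correction for form length, each short of the size needed for a call. KLC1, a light chain of the motor kinesin, held a called exon (ENSG00000126214.16) near the end of its coding sequence, at 104153418 to 104153548 on chromosome 14. KLC1 levels were 0.668 and 0.612 across the first set, and 0.487 and 0.525 across the second, with a difference of 0.134 at an FDR of 0.0351 by the authors' deposited table. Its removal moved the stop from 618 to 573 codons, 1 nt before the last junction. The shallow depth of 198 to 242 reads leaves each level an interval of up to 0.075 to either side.

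Where the included form was listed under NMD and the skipped form as coding, 3 of 28 exons were called. None of the 24 exons of the reverse kind was called. The rate was 4.84% over all the chosen exons and 7.85% among tested events of mean inclusion 0.2 to 0.8. MKNK2, a kinase that phosphorylates the cap-binding factor eIF4E, had an exon of 226 nt (ENSG00000099875.10) at 2039630 to 2039855 on chromosome 19, with levels of 0.461 and 0.470 across the first set, and 0.305 and 0.228 across the second. MKNK2 had a difference of 0.199 at an FDR of 4.25e-06 by the authors' deposited table. Placed into the skipping transcript, this exon moved the stop from 414 to 488 codons and past the last junction, so by sequence that reading holds no premature stop, whatever the transcript type. The LAMP2 exon printed above (ENSG00000005893.11) was at 0.273 and 0.240 across the first set, and 0.115 and 0.187 across the second. Both libraries of the second set were lower, library 1 most, and LAMP2 had a difference of 0.106 at an FDR of 0.000552 by the authors' deposited table. Without library 1 of the second set the LAMP2 difference was 0.0694, and without library 1 of the first it was 0.0894. PRPF39, a protein associated with the U1 small nuclear ribonucleoprotein, had its 100-nt exon (ENSG00000185246.13) at 0.335 and 0.331 across the first set, and 0.257 and 0.2003 across the second. It had a difference of 0.105 at an FDR of 0.0423 by the authors' deposited table, fell outside the naming rule and is given as a called exon, with 0.0760 without library 2 of the second set.

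PSPH, which catalyses the last step of serine synthesis, had an exon of 209 nt (ENSG00000146733.9) at 56087293 to 56087501 on chromosome 7. Its included form was also matched only to NMD transcripts, with no transcript matched to the skipped form. PSPH was at 0.907 and 0.885 across the first set, and 0.802 and 0.548 across the second, with a difference of 0.221 at an FDR of 0.00701 by the authors' deposited table. Library 1 of the second set was near the first set and library 2 far below, and without library 2 the difference was 0.0941. The RPAIN exon of 329 nt (ENSG00000129197.10), in the gene of a protein that carries replication protein A into the nucleus, was in no matched protein-coding transcript. RPAIN was at 0.344 and 0.361 across the first set, and 0.273 and 0.204 across the second, with a difference of 0.114 at an FDR of 0.00856 by the authors' deposited table. The RPAIN difference was 0.0791 without library 2 of the second set.

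Exons of the 5′ untranslated region made up 3 of the 17, out of 64 such exons (18.2% of all the chosen exons). IRF3, a transcription factor of the interferon response, had an exon of 172 nt (ENSG00000126456.11) at 50166600 to 50166771 on chromosome 19, with levels of 0.824 and 0.831 across the first set, and 0.681 and 0.714 across the second. Libraries within each set were close, and IRF3 had a difference of 0.13 at an FDR of 0.00206 by the authors' deposited table. TMEM126B, an assembly factor of mitochondrial complex I, held an exon of the same length (ENSG00000171204.8) at 85342189 to 85342360 on chromosome 11. TMEM126B was at 0.464 and 0.385 across the first set, and 0.354 and 0.267 across the second, with a difference of 0.114 at an FDR of 0.0284 by the authors' deposited table. The lower level of the first set lay close above the higher of the second. The TMEM126B difference was 0.0742 without library 1 of the first set and 0.0704 without library 2 of the second. Placed into a transcript that skips it, this exon brought a stop after 40 of 230 codons. In CNOT1, the scaffold of the CCR4-NOT deadenylase complex, the 122-nt exon (ENSG00000125107.12) had a difference of -0.221 at an FDR of 5.18e-06 by the authors' deposited table. CNOT1 was at 0.118 and 0.167 across the first set, and 0.417 and 0.311 across the second. The first set held 373 and 217 reads there, against 99 and 142 for the second, and what that depth gap adds to the difference was not tested.

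The other called exons were of mixed kinds. POMT1, a protein O-mannosyltransferase, had a partly coding exon of 152 nt (ENSG00000130714.11) at 0.568 and 0.597 across the first set, and 0.453 and 0.261 across the second. POMT1 had a difference of 0.226 at an FDR of 0.00916 by the authors' deposited table and a difference of 0.130 without library 2 of the second set. The exon of PDDC1 (ENSG00000177225.12), named GATD1 in release 29 and not matched there, was at 0.855 and 0.745 across the first set, and 0.662 and 0.696 across the second. PDDC1 had a difference of 0.121 at an FDR of 0.0293 by the authors' deposited table, which was 0.0655 without library 1 of the first set and 0.0866 without the correction for form length. ANKRD19P (ENSG00000187984.8) is a pseudogene, and related copies may share its reads. Its exon was at 0.433 and 0.432 across the first set, and 0.603 and 0.609 across the second, the tightest sets of the 17, with a difference of -0.173 at an FDR of 0.00297 by the authors' deposited table.

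Another 5 exons had an FDR under 0.05 in the authors' deposited table (22 of 351 in all, against 5.72% of tested events) with a difference under 0.1. They were named after their values were seen. In USP10, a deubiquitinating enzyme, the exon was at 0.848 and 0.841 across the first set, and 0.757 and 0.738 across the second, and its skipped form is listed under NMD. NDUFB5, a subunit of mitochondrial complex I, gave a pair of overlapping exons that differ by 2 bases at one end, so their reads are largely the same. The longer was at 0.392 and 0.419 across the first set, and 0.330 and 0.285 across the second. TMEM141 was at 0.791 and 0.735 across the first set, and 0.693 and 0.655 across the second. C6orf48, a snoRNA host gene, was at 0.272 and 0.216 across the first set, and 0.300 and 0.345 across the second, the only one of these 5 that was lower in the first set.

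Splicing regulators are known to control their own levels through such exons. Of 84 genes on a list of them, 80 were in the table, and 8 held 10 of the 351 exons. None of the 10 was called, against 8 of 646 tested events of the listed genes. Here and for the lists below, the tested events were not limited to mean inclusion from 0.2 to 0.8, so the rates are not like measures. Of all tested events within those limits, 7.85% were called. The sets were separated in 2 of the 10, both higher in the first set, against 38.7% of the 351 exons and 22.8% of tested events separated in either direction, and the median difference was 0.0233. U2AF1, the subunit of U2AF that reads the 3′ splice site, is known to use its 67-nt exon in place of a neighbour, and the exon was at 0.434 and 0.402 across the first set, and 0.391 and 0.433 across the second, with the sets interleaved. For HNRNPC, an RNA-binding protein of nascent transcripts, an untranslated exon of 272 nt was at 0.239 and 0.243 across the first set, and 0.215 and 0.173 across the second. It was separated by set, with a difference of 0.047 at an FDR of 0.131 by the authors' deposited table. HNRNPA2B1 had an exon of 136 nt, matched only to NMD transcripts, at 0.761 and 0.664 across the first set, and 0.676 and 0.579 across the second. The levels of SF1, which binds the branch point, were 0.481 and 0.464 across the first set, and 0.456 and 0.522 across the second. The longer HNRNPR exon was at 0.347 and 0.368 across the first set, and 0.307 and 0.373 across the second. HNRNPR has a second, overlapping exon of 166 nt with nearly the same reads, at 0.358 and 0.368 across the first set, and 0.299 and 0.369 across the second. In U2AF1, HNRNPR and SF1 the libraries of a set differed by as much as the sets.

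The machinery of NMD itself was represented by exons of RNPS1 and ACIN1, both exon junction proteins, out of 28 listed genes in the table. Neither was called and neither was separated by set, against 2 of 160 tested events called in the listed genes. RNPS1 was at 0.620 and 0.608 across the first set, and 0.563 and 0.639 across the second, from 2694 to 2809 reads. ACIN1, near the lower limit of the rule, was at 0.210 and 0.207 across the first set, and 0.212 and 0.180 across the second. Placed into a skipping transcript, the RNPS1 exon brought a stop after 26 codons in place of 282.

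**Figure D5:**
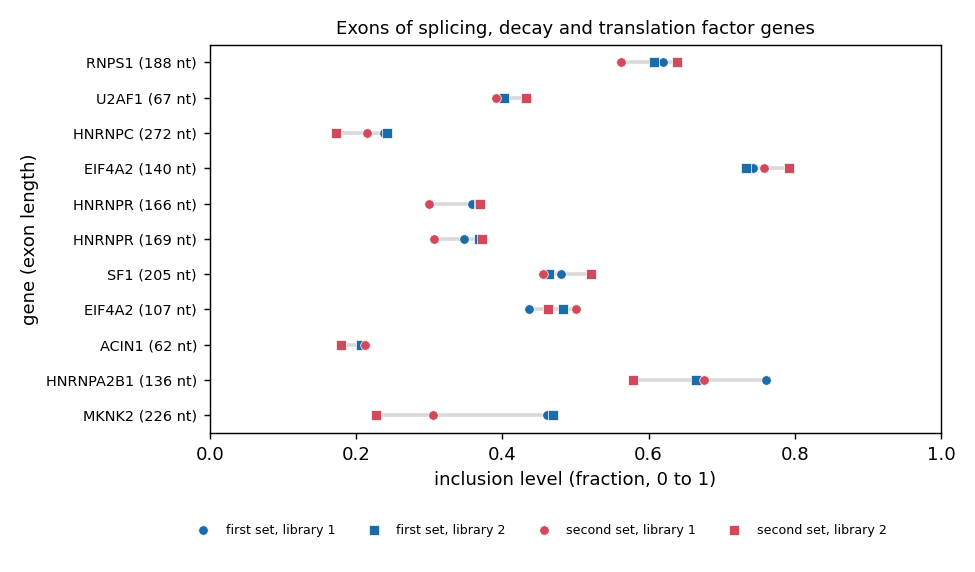
Inclusion level (x axis, fraction from 0 to 1) in each library for the exons named from the lists of splicing regulators, NMD and exon junction factors, and translation factors, by gene and exon length (y axis), deepest first. The first set (blue) and the second set (red) overlap in most exons, and MKNK2 is the only called one of those plotted.

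Of the translation factors, EIF4A2 held a pair of exons of opposite kind. Skipping of its 140-nt exon gives the NMD-listed form, and the exon was at 0.743 and 0.733 across the first set, and 0.758 and 0.792 across the second. Inclusion of its 107-nt exon gives the NMD-listed form, and that exon was at 0.437 and 0.483 across the first set, and 0.501 and 0.463 across the second. The first was separated by set, lower in the first set, and the second was not, and neither was called. With MKNK2, 1 of the 3 exons on this list was called, against 3 of 515 tested events of its genes.

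Protein kinases and phosphatases held 7 of the exons, of which CHEK1 was called, against 7 of 526 tested events of any inclusion level. CSNK1E, a casein kinase, was at 0.354 and 0.381 across the first set, and 0.572 and 0.430 across the second. The first set was lower, with a difference of -0.133 at an FDR of 0.121 by the authors' deposited table, and the exon was not called. The CSNK1E difference was -0.0631 without library 1 of the second set and -0.204 without library 2. AKT2, a kinase of insulin signalling, was at 0.8002 and 0.755 across the first set, and 0.687 and 0.773 across the second. The STK25 exon was at 0.774 and 0.838 across the first set, and 0.833 and 0.736 across the second, and the sets overlapped in both. The PAK4 exons of 73 and 83 nt overlap each other and lie in the 5′ untranslated region. The shorter was at 0.712 and 0.687 across the first set, and 0.651 and 0.664 across the second, separated by set and higher in the first.

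Among ubiquitin enzymes, with RNF14, USP10 and USP33, 1 of 3 exons was called, against 10 of 606 tested events of any inclusion level. USP33 was at 0.267 and 0.260 across the first set, and 0.302 and 0.312 across the second, slightly lower in the first set. Chromatin and transcription regulators held 6 exons with none called, against 23 of 758. The TCF3 exon printed above was at 0.413 and 0.450 across the first set, and 0.414 and 0.394 across the second. Another TCF3 exon, of 79 nt, was at 0.610 and 0.635 across the first set, and 0.574 and 0.471 across the second. ING4, a reader of histone methylation, was at 0.759 and 0.778 across the first set, and 0.745 and 0.780 across the second. CREM, a cAMP-responsive transcription factor, was at 0.637 and 0.572 across the first set, and 0.596 and 0.640 across the second. The histone demethylase KDM5A was at 0.298 and 0.323 across the first set, and 0.419 and 0.306 across the second. In these 3 the sets overlapped. DNA repair genes held 4 exons, of which only CHEK1 was called, against 13 of 611. ERCC1, a subunit of a repair nuclease, was at 0.781 and 0.810 across the first set, and 0.764 and 0.774 across the second, separated by set. The repair polymerase gene POLB was at 0.337 and 0.293 across the first set, and 0.232 and 0.304 across the second. XRCC3, which acts in homologous recombination, was at 0.680 and 0.707 across the first set, and 0.733 and 0.559 across the second, and the sets overlapped in POLB and XRCC3.

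The deepest exons have the smallest counting error, which leaves out the scatter between libraries. ALDOA, a glycolytic aldolase, had a 52-nt untranslated exon with 6362 to 8357 reads at 0.326 and 0.357 across the first set, and 0.321 and 0.302 across the second. The sets did not overlap, and each level had an interval of at most 0.011 to either side for counting error only. ALDOA had a difference of 0.03 at an FDR of 0.808 by the authors' deposited table. C17orf76-AS1, a snoRNA host gene, was at 0.286 and 0.254 across the first set, and 0.231 and 0.290 across the second. Its libraries of the second set differed by 0.0592, beyond counting intervals of at most 0.0126 to either side. The YDJC exon was at 0.655 and 0.656 across the first set, and 0.645 and 0.672 across the second. VKORC1, the vitamin K epoxide reductase, was at 0.701 and 0.691 across the first set, and 0.691 and 0.716 across the second. Both exons are coding, and the 4 libraries spanned 0.0279 in YDJC and 0.0252 in VKORC1, with the sets overlapping. HDDC2, whose skipped form is printed above, was at 0.702 and 0.725 across the first set, and 0.708 and 0.665 across the second. A pair of overlapping exons of XIST, the long noncoding RNA of X inactivation, completes the 8 deepest with the RNPS1 exon.

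Of the 5 exons with the smallest range, 2 are in 1 gene. In TMX2, a thioredoxin-related membrane protein, the 191-nt exon with the NMD-listed included form was at 0.534 and 0.528 across the first set, and 0.538 and 0.537 across the second. An overlapping TMX2 exon of 241 nt was at 0.526 and 0.513 across the first set, and 0.527 and 0.523 across the second. ZFAND5 was at 0.519 and 0.537 across the first set, and 0.526 and 0.528 across the second. The FAHD2A exon was at 0.794 and 0.787 across the first set, and 0.794 and 0.803 across the second. CAMTA1, a calmodulin-binding transcription activator, was at 0.790 and 0.794 across the first set, and 0.780 and 0.789 across the second. In each of the 5 exons the 4 libraries differed by less than their counting intervals.

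The exons share genes and reads. Of the 295 genes, 248 held 1 exon and 47 held the other 103, with 57 exons overlapping another. SDR39U1 held 5 and C16orf13 held 4. The deepest SDR39U1 exon, of 83 nt, was at 0.730 and 0.799 across the first set, and 0.794 and 0.776 across the second. The 118-nt one was at 0.757 and 0.746 across the first set, and 0.694 and 0.623 across the second, the only one of the 5 separated by set. SDR39U1 was outside the naming rule and is given for its number of exons. Exons of 1 gene are not independent of each other.

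At the limits of the rule, IP6K2 with a mean of 200.25 reads and IFFO1 with 200.5 were just inside, and C11orf74 with 199.75 and PRKRIP1 with 199.5 just outside. For mean inclusion, ACIN1 at 0.202 and LAMP2 at 0.204 were inside the lower limit and TCF20 at 0.199 outside. ZNF639 and SFXN2, both at 0.7996, were inside the upper limit, and PDLIM2 at 0.8001 was outside. By length, ALDOA with 52 nt and MIS12 with 394 nt were inside, and an exon of FAM96A with 50 nt and one of PPT2 with 406 nt outside.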

How the data were processed

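The deposited table gives, for each skipped exon event, the counts of inclusion and skipping junction reads, 2 libraries to a cell, and the authors' inclusion levels as fractions, per the file headers, whose layout is that of rMATS. The authors' difference in inclusion level is a score from -1 to 1 in the deposited table, and their p-value and FDR are from rMATS, per the file headers. The submitters' processing notes name cutadapt, STAR and hg19. The rMATS version and annotation are not given in the sources used here. Inclusion levels recomputed from counts per effective form length were within 0.0005 of the deposited values.

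Events with a mean of at least 20 reads (54503 of 65601) were tested with a quasi-binomial model in R 4.3.3, with Pearson dispersion moderated by limma 3.58.1 (squeezeVar), on a trend with reads where at least 5 reads of each form were fitted in every library, and then not set under 1. Adjustment was by Benjamini-Hochberg over all tested events. This replaces the count model planned first, which was not run. limma on log2 ratios, with a pseudocount of 0.5, and a model with dispersion set to at least 1 before moderation were run beside it. All were tested on simulated data. The p-values measure only the spread between these 4 libraries.

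The exons, gene lists and tests were chosen with earlier results of these data known. Named exons were the called ones (at most 12 in each direction), the 8 deepest, at most 6 from each gene list by reads, the 5 with the smallest range over the 4 libraries, and the 2 nearest to each limit of the rule. GENCODE 29 is on GRCh38, so it served for exon types and transcript sequences only, matched by exon and intron lengths within a gene, and no position was converted. Of the called exons, 1 is not reported here.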

Additional observations from a re-analysis of the deposited data

How the results depend on the processing

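The 17 exons called from the authors' test became 9 at an FDR under 0.01 and 3 at a difference of at least 0.2, which follows from the thresholds. With a minimum of 100 reads in the rule there were 35 called of 663 exons, and with 400 reads 7 of 160. The count was 22 at a difference of at least 0.05, 24 with mean inclusion from 0.1 to 0.9, and 17 with the adjustment over tested events or with all events of an exon. Leaving out each library in turn, between 9 (without library 2 of the second set) and 17 kept a difference of at least 0.1. The quasi-binomial count of 0 was 5 with the dispersion set to at least 1 before moderation, chosen after seeing the data, and the cause of this change was not tested. It ranged from 0 to 15 with each library left out, 15 without library 1 of the second set and 1 without library 2. Each such fit leaves 1 set with a lone library, assumed to vary like the other. Of the 136 exons separated by set, 31 had a gap of at least 0.05. The median absolute difference of 0.0408 ranged from 0.0385 to 0.0538 with each library left out and was 0.0334 without the correction for form length. No called difference among the named exons changed sign under these alternatives.

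No paired analysis was possible because the table carries no replicate numbers for its libraries. The planned fits with edgeR and DESeq2 and the TMM factors were not run. The models used here were fitted to the joined counts after splitting them by library. Depth limits single levels to intervals of up to 0.119 to either side. Effects under 0.1 in inclusion level are near the spread between libraries of the second set.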

Other observations

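Of the 35 exons with a difference of at least 0.1 between the sets, 18 were not called. The following were named after their values were seen. The 149-nt exon of DYRK2, a protein kinase, was at 0.745 and 0.815 across the first set, and 0.756 and 0.459 across the second, a difference of 0.172. Its level in library 2 of the second set was far below the other 3, and the difference was 0.0236 without it. The 166-nt exon of DHX30, an RNA helicase, was at 0.276 and 0.399 across the first set, and 0.607 and 0.386 across the second, a difference of -0.159. The libraries of DHX30 overlapped between the sets, and its difference was -0.0478 without library 1 of the second. All 7 exons whose included form was found only in NMD transcripts, with no transcript matched to the skipped form, had a higher mean in the first set, PSPH and HNRNPA2B1 among them, with a median difference of 0.0684. The sets were separated in 3 of the 7, against 38.7% of the 351 exons and 22.8% of tested events, and no test was made of these counts. The only exon of this kind among those that keep frame was lower in the first set, with a difference of -0.0447.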
